A study of Mus musculus with 8 samples.

Results

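The genes described here control how pyruvate enters mitochondria and is turned into acetyl-CoA in the left ventricle of mice that overexpress the microRNA miR-100 in the heart, set against wild type mice. The rule was a list of 10 gene symbols, and every row of the deposited value table whose platform symbol was on that list was taken. That gave 9 measured genes, each with 1 row, out of 22206 rows, of which 19572 carried 1 symbol. No row was annotated to Mpc2 by symbol or Entrez number, so this gene was not analysed here.

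The groups were 4 mice with cardiac-specific overexpression of miR-100 and 4 wild type mice. All 8 animals were untreated males of strain C57/BL6J aged 8 weeks, and 1 array was hybridised for each. The sources used here do not name the promoter that drives the microRNA, the number of transgenic lines or the litters. All p-values therefore reflect spread among these 8 arrays and nothing wider. Values are log2 signals, so a difference of 1 is a doubling of signal, and every difference below is miR-100 minus wild type.

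Pyruvate from glycolysis and lactate crosses the inner mitochondrial membrane through the mitochondrial pyruvate carrier, which is built from the products of Mpc1 and Mpc2. The pyruvate dehydrogenase complex then makes acetyl-CoA from it. Pyruvate dehydrogenase kinases, encoded by Pdk1 to Pdk4, phosphorylate the E1 component and switch it off, and the phosphatases encoded by Pdp1 and Pdp2 switch it on again. In heart muscle this balance sets how much glucose carbon is oxidised in place of fatty acids, and Pdk4 is known as the kinase gene that fasting and fatty acids induce.

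The mature strand of the overexpressed microRNA is shown because it defines the groups. The capitals mark the seed, bases 2 to 8, which pairs with target messenger RNAs. The sequence is RefSeq's, at chr9:41531437-41531458 on the plus strand of GRCm38.p6.
mmu-miR-100-5p: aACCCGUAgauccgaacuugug

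Promoters are shown for Pdk4, the member whose signal differed most between animals of the same group, and for Pdk2 for comparison. The signal of Pdk2 varied less than that of Pdk4 but more than those of Pdk1 and Pdk3. Each window holds 250 bases before and 50 after the RefSeq start on GRCm38.p6, and the first entry listed for each gene came from the minus strand, at chr6:5496229-5496528 for Pdk4 and chr11:95041322-95041621 for Pdk2. Capitals mark matches to any of the motifs named after the sequences.
Pdk4: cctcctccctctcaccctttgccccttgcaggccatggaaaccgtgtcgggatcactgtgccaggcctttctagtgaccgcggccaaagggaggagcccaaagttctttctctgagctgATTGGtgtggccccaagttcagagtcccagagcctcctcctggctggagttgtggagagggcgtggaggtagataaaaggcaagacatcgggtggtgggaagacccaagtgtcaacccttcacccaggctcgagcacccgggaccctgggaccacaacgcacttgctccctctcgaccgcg
Pdk2: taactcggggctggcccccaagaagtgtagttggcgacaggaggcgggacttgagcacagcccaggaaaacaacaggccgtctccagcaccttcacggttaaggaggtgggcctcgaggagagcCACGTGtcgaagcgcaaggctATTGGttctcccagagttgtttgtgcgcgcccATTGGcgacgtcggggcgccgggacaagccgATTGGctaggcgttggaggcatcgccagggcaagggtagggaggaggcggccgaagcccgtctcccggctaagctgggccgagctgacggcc

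On either strand, 8 motifs were searched, namely AGGTCA of nuclear receptors, the direct repeat of that core bound by PPAR factors, which can overlap it, GTAAACA of FOXO factors, the E-box motif CACGTG, the core ACGTG of hypoxia-inducible factors, which overlaps the E-box, the GC box GGGCGG, the CCAAT box and the TATA box motif TATAAA. The Pdk4 window held 1 match, a CCAAT on the reverse strand, as do 37.9% of 27025 promoters for either strand. The Pdk2 window held 1 E-box, found in 7.24% of promoters, which also gives a match to ACGTG on each strand, and 3 CCAAT matches. The direct repeat, present in 0.381% of promoters, was in neither window, which says only that these letters are not there. The dinucleotide CG occurred 12 times in the Pdk4 window, against 25 times in that of Pdk1, 25 in that of Pdk2 and 35 in that of Pdk3. Of all promoters, 59.9% had fewer than Pdk4, 81.6% fewer than Pdk1 or Pdk2 and 93.3% fewer than Pdk3. Among the other members, Pdp2 had 14. These matches describe the letters of the windows alone.

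The tissue was first checked by marker genes. All 8 heart muscle markers were bright, with a mean over the list of 18.40 to 18.47 in miR-100 hearts and 18.45 to 18.54 in wild type hearts (log2 signal), whereas the 3 atrial markers were dimmer, with Myl7 between 3.36 and 4.48, Sln between 5.01 and 5.7 and Myl4 between 7.52 and 7.99 over all arrays. Wild type replicate 2 stood apart on the first principal component, with a score of -38.2 against -12.99 to -3.49 on the other wild type arrays, and so did miR-100 replicate 2, at 30.8 against 8.96 to 13.5 on the other miR-100 arrays. The summed level of 5 measured fat cell markers ran from 19.36 to 21.01 in miR-100 hearts and from 18.83 to 19.26 in wild type hearts, with the defining marker Adipoq at 3.63 to 4.44 and 3.36 to 3.79, at percentile 15.0 of all row means. Of 4 mural cell markers, Acta2, which encodes smooth muscle actin, read 12.94 to 14.66 in miR-100 hearts and 12.61 to 12.86 in wild type hearts, a difference of 1.11 (limma adjusted p = 0.203), while Myh11, Pdgfrb and Rgs5 differed by -0.0625, -0.135 and 0.0275. The liver gene Alb read 11.80 on the array of miR-100 replicate 2 and 4.94 to 6.34 on the other 7. The overexpression itself was not checked here, because 0 rows were annotated to Mir100 or Mir100hg. The part of these features in the results below was not tested. In whole ventricle, fewer cells of a type and less RNA per cell cannot be told apart.

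None of the 9 measured genes of pyruvate entry passed the test. At the limma threshold, a Benjamini-Hochberg adjusted p under 0.05 over the whole table, the count was 0 of 9, against 0.14% of all rows (0.0946% higher and 0.045% lower in miR-100). At an unadjusted p under 0.05 it was also 0 of 9, against 7.73% of all rows (3.55% higher and 4.17% lower). Groups that did not overlap were found for 0 of 9, against 4.54% of all rows (2.21% higher and 2.33% lower). Differences were above 0 for 5 genes, against 46.5% of all rows, and below 0 for 4, against 53%, with a median of 0.015 beside -0.015 over all rows. They ran from -0.285 for Pdk4 to 0.21 for Pdp1.

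**Figure D1:**
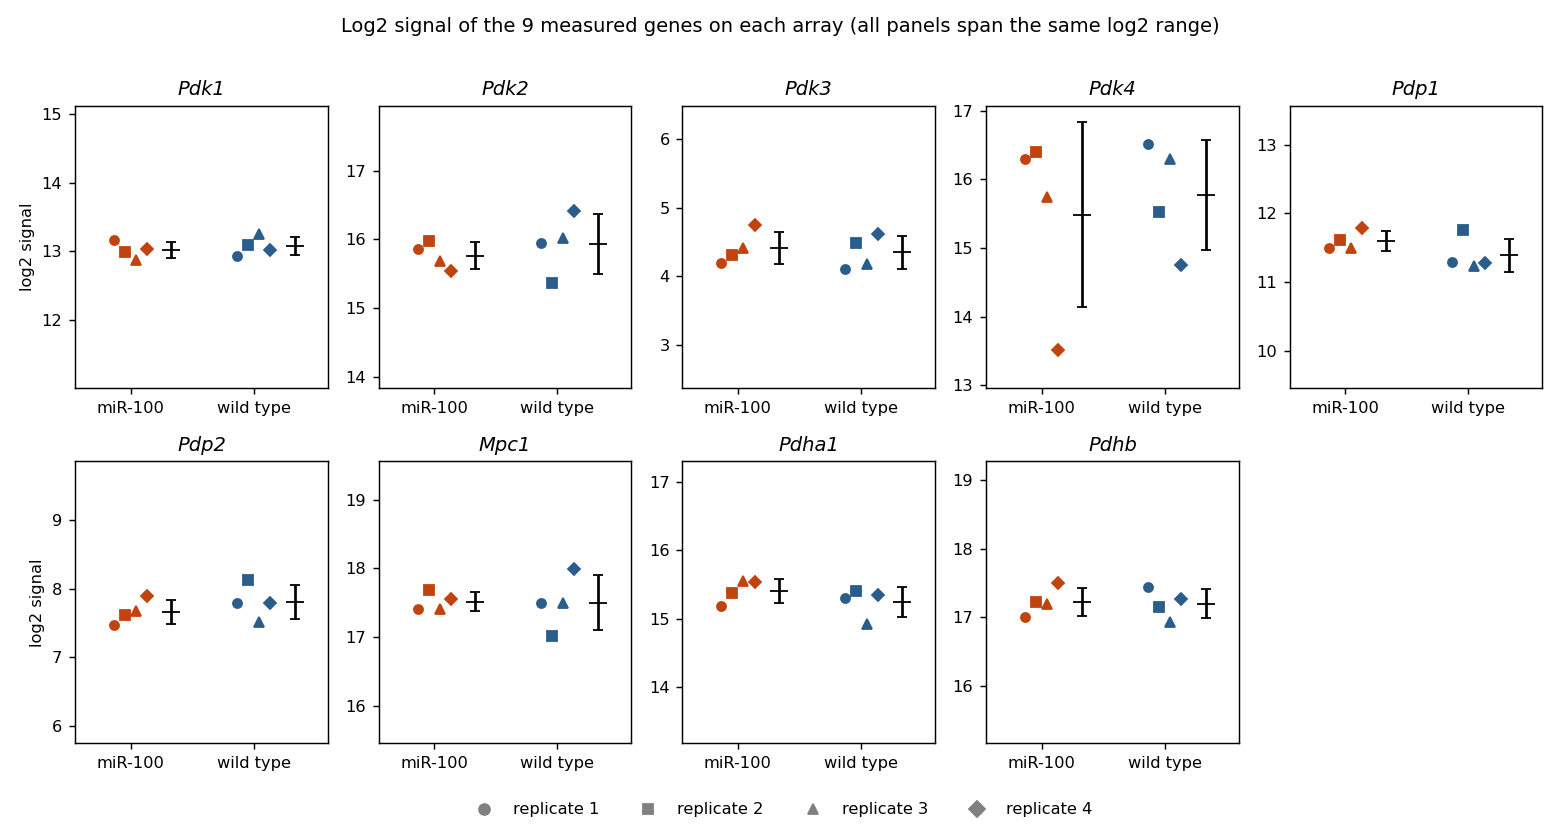
Log2 signal of the 9 measured genes on each array, with miR-100 left of wild type in each panel, a symbol for each replicate, and the mean with its SD as a black bar beside each group (n = 4 each). All panels span the same log2 range, and the groups overlap in every panel, with the widest scatter in Pdk4.

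Among the kinases, Pdk4 had 16.29, 16.40, 15.75 and 13.51 in miR-100 hearts, against 16.52, 15.53, 16.29 and 14.75 in wild type hearts (log2 signal). Replicate 4 was the lowest of each group and the groups overlapped almost throughout. The means were 15.49 ± 1.35 in miR-100 hearts and 15.77 ± 0.80 in wild type hearts (SD, n = 4 each). The difference of -0.285 had a standard error (SE) of 0.55, with a two-sided exact permutation p of 0.771 and a limma adjusted p of 0.951. As a ratio its 95% confidence interval ran from 0.363 to 1.86, so changes within that range are not excluded by these arrays. A single array set the sign, since without miR-100 replicate 4 the difference was 0.37 (limma adjusted p = 0.893).

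Pdk2, the kinase gene known for wide expression in heart and other tissues, had 15.86, 15.98, 15.68 and 15.54 in miR-100 hearts, against 15.95, 15.36, 16.02 and 16.42 in wild type hearts. The wild type arrays held both the lowest and the highest value, and all miR-100 arrays lay between them. The difference was -0.17 (95% confidence interval -0.62 to 0.27, limma adjusted p = 0.910, two-sided exact permutation p = 0.543). Without wild type replicate 2, the lowest array, it was -0.365 with a limma adjusted p of 0.621.

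Pdk1, a kinase gene induced by hypoxia, was the steadiest member. It had 13.16, 12.99, 12.88 and 13.04 in miR-100 hearts, against 12.94, 13.09, 13.25 and 13.02 in wild type hearts. The groups covered nearly the same range, and the difference of -0.06 had a 95% confidence interval of -0.36 to 0.25 (limma adjusted p = 0.961). As a ratio that interval was 0.779 to 1.19.

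Pdk3, a kinase gene best known from other tissues such as testis and brain, was the dimmest member, at percentile 29.8 of all row means. It had 4.19, 4.31, 4.41 and 4.74 in miR-100 hearts, against 4.11, 4.48, 4.18 and 4.61 in wild type hearts. The groups overlapped, with replicate 4 the highest of each, and the difference was 0.07 (95% confidence interval -0.30 to 0.44, limma adjusted p = 0.962). Dim rows lie near the background of the array, which limits what a value there can show.

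Of the phosphatases, Pdp1, the calcium-stimulated form that is prominent in muscle, had 11.49, 11.61, 11.49 and 11.79 in miR-100 hearts, against 11.29, 11.75, 11.23 and 11.28 in wild type hearts. All miR-100 arrays exceeded 3 of the 4 wild type arrays, and wild type replicate 2 lay inside the miR-100 range. The difference was 0.21 (SE 0.16, 95% confidence interval -0.14 to 0.55, limma adjusted p = 0.840, two-sided exact permutation p = 0.200). Without wild type replicate 2 it was 0.33, with an unadjusted p of 0.0406 and a limma adjusted p of 0.587.

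Pdp2, the phosphatase gene known to respond to insulin and feeding in rat, had 7.47, 7.62, 7.68 and 7.89 in miR-100 hearts, against 7.79, 8.13, 7.52 and 7.79 in wild type hearts. The groups overlapped, and the difference was -0.14 (SE 0.16, 95% confidence interval -0.50 to 0.21, limma adjusted p = 0.904). Without wild type replicate 2, the highest array, it was -0.035.

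For pyruvate import, Mpc1 had 17.41, 17.69, 17.41 and 17.56 in miR-100 hearts, against 17.50, 17.02, 17.50 and 17.99 in wild type hearts. The wild type arrays again held both ends of the range. Mpc1 averaged 17.52 ± 0.14 in miR-100 hearts and 17.50 ± 0.40 in wild type hearts (SD, n = 4 each). The difference was 0.015 (95% confidence interval -0.40 to 0.43, limma adjusted p = 0.993). Its sign changed with several settings, among them leaving out wild type replicate 2, where it was -0.15.

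The E1 component itself differed little. Pdha1, the X-linked gene of the alpha subunit that the kinases phosphorylate, had 15.18, 15.37, 15.55 and 15.53 in miR-100 hearts, against 15.30, 15.41, 14.93 and 15.35 in wild type hearts. The difference of 0.16 had a 95% confidence interval of -0.18 to 0.50 (limma adjusted p = 0.884), and the groups overlapped. Pdhb, the gene of the beta subunit, had 17.00, 17.22, 17.19 and 17.50 in miR-100 hearts, against 17.45, 17.15, 16.94 and 17.27 in wild type hearts. Its difference was 0.025 (95% confidence interval -0.32 to 0.37, limma adjusted p = 0.987).

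**Figure D2:**
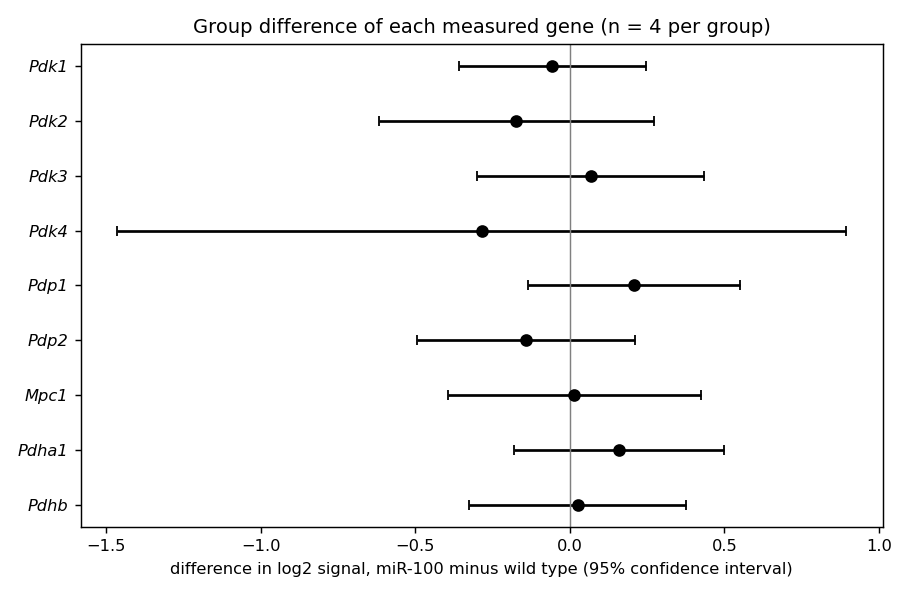
Difference in log2 signal, miR-100 minus wild type, for the 9 measured genes, with points for limma estimates and bars for 95% confidence intervals (n = 4 per group). All 9 intervals include 0, and that of Pdk4, from -1.46 to 0.89, is the widest.

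Genes of the same step can be compared within an array, which removes what shifts all rows of that array together. Such differences were formed for 6 pairs of members, and each was tested by a two-sided exact permutation test over 70 assignments of the arrays, whose smallest p is 0.0286. The phosphatases gave the lowest p. Pdp1 minus Pdp2 was 4.02, 3.99, 3.81 and 3.9 in miR-100 hearts, against 3.5, 3.62, 3.71 and 3.49 in wild type hearts (log2), so the groups did not overlap. On average it was 3.93 ± 0.09 in miR-100 hearts and 3.58 ± 0.10 in wild type hearts (SD, n = 4 each). The groups thus differed by 0.35 (exact permutation p = 0.0286, Benjamini-Hochberg adjusted p = 0.171 over the 6 pairs). The adjusted value missed the threshold, which a lone pair at the smallest possible p cannot pass among 6. The shift ran from 0.32 to 0.39 without each array in turn. Groups already apart stay apart when an array is left out. The exact permutation p of those runs, 0.0286 each, was therefore fixed in advance and adds nothing. The unequal difference does not show which of these genes moved.

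The other pairs showed no such separation. Pdha1 minus Pdhb differed by 0.135 between the groups (exact permutation p = 0.286), and Pdk2 minus Pdk1 by -0.115 (exact permutation p = 0.714). Pdk4 minus Pdk1, Pdk2 and Pdk3 differed by -0.23, -0.11 and -0.35, with exact permutation p of 0.771, 0.743 and 0.657. On this measure, too, Pdk4 minus Pdk2 fell far below the rest on 1 array of each group, at -2.03 for miR-100 replicate 4 and -1.67 for wild type replicate 4, against 0.07 to 0.57 on the other 6 arrays.

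Spread among animals of the same group set Pdk4 apart from the other members. Its pooled SD within groups was 1.11 on the log2 scale, at percentile 99.9 of all rows, and 31 of 22206 rows had a larger one. Among 5551 rows above the 75th percentile of row means, 7 had a larger one. The other members had pooled SDs from 0.12 for Pdk1 to 0.34 for Pdk2, beside a median of 0.25 over all rows. These are descriptions of 8 arrays, with no test attached.

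**Figure D3:**
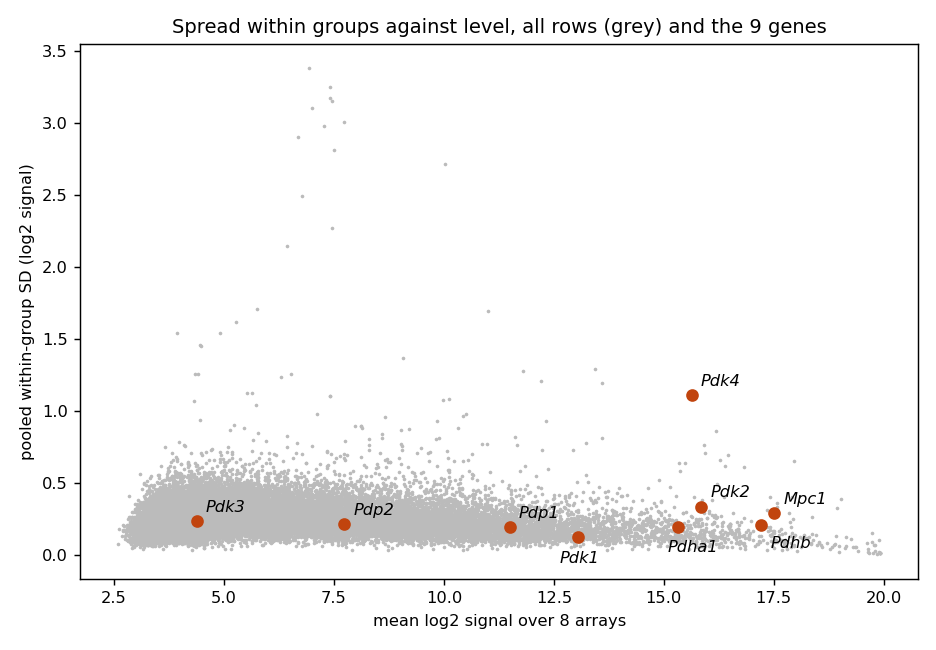
Pooled within-group SD of log2 signal (vertical axis) against mean log2 signal over 8 arrays (horizontal axis) for all rows in grey and the 9 measured genes in orange. Pdk4 lies at an SD of 1.11, far above rows of similar brightness, and the other 8 genes lie between 0.12 and 0.34.

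Which other genes went up and down with Pdk4 from array to array was described by Pearson's r over the 8 arrays after each group's mean was removed. All these r rest on the same 8 arrays, and no p is attached. The closest rows with a symbol were Tnnc1, which encodes cardiac troponin C, at r = 0.984, Ltf, which encodes lactoferrin, at 0.967, the pseudogene H2-T-ps at 0.962, Plin2, which encodes a lipid droplet coat protein, at 0.960, and B9d2, a gene of the ciliary base, at 0.957. Without miR-100 replicate 4 these values were 0.946, 0.935, 0.935, 0.872 and 0.844. The measure takes shape and not size into account: Tnnc1 moved only between 18.00 and 18.15, and Ltf was dim, at 3.42 to 3.93.

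Of the 5 lists of regulators and responsive genes, the fatty acid responsive genes had the highest median r with Pdk4. Of 19 measured genes of this list, which leaves out Pdk4, 7 had an r above 0.7, and the median r was 0.608, or 0.511 without miR-100 replicate 4. Among all rows, an r of 0.685 lay at percentile 95.9 and an r of 0.760 at percentile 97.7. Ucp3, a mitochondrial uncoupling protein gene of muscle, had r = 0.954, Cpt1a, a carnitine palmitoyltransferase gene, 0.945, and Angptl4, which encodes an inhibitor of lipoprotein lipase, 0.914. Ucp3 read 12.98, 13.28, 12.31 and 11.25 in miR-100 hearts, against 12.44, 12.14, 12.15 and 11.26 in wild type hearts, again lowest in replicate 4 of each group. By comparison, the median r was 0.058 for glucocorticoid and FOXO targets and 0.054 for clock genes. For transcription regulators of Pdk genes it was -0.003, and for hypoxia targets -0.144. These medians leaned on 1 array, since without miR-100 replicate 4 they were -0.471, -0.332, -0.327 and -0.373, in the same order. The muscle form Cpt1b, at r = 0.389, and Acadm, an enzyme gene of fatty acid oxidation at -0.699, had lower values. Without miR-100 replicate 4 they had -0.238 and -0.406. Genes of other lists also reached high values, such as Myl3 at 0.908 and Bckdha at 0.880. The median r was 0.470 for macrophage markers, 0.426 for fat cell markers, 0.353 for atrial, 0.277 for fibroblast and 0.258 for heart muscle markers. Without miR-100 replicate 4 these were 0.151, 0.228, 0.068, 0.350 and 0.225. For the sister complexes described below the median r was -0.514, or -0.492 without that array.

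**Figure D4:**
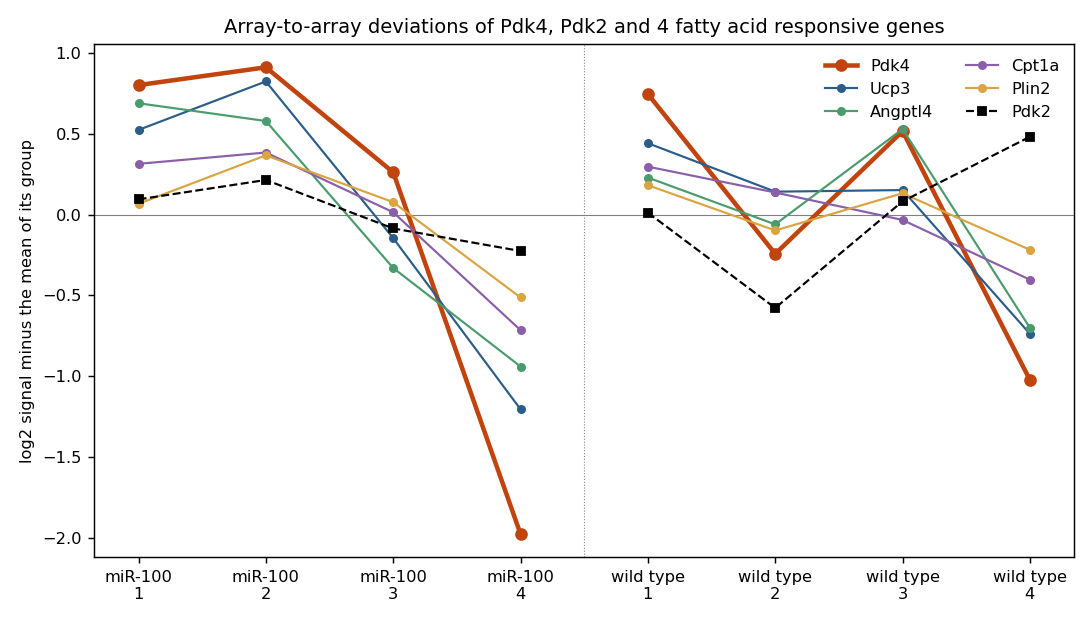
Log2 signal minus the mean of its own group (vertical axis) on each array for Pdk4, 4 fatty acid responsive genes and Pdk2, with miR-100 arrays left of the dotted line and wild type arrays right of it. Lines only join points of a gene and replicates have no order. The 4 genes had the highest r with Pdk4 among the 19 measured on their list, so their likeness to it follows from that choice. Acadm of the same list was highest in replicate 4 of each group. Pdk4, Ucp3, Angptl4, Cpt1a and Plin2 are all lowest in replicate 4 of each group, while Pdk2 is lowest there among miR-100 arrays and highest there among wild type arrays.

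Among the members themselves, Pdk3 ran opposite to Pdk4 (r = -0.940, and -0.955 without miR-100 replicate 4, over the dim range of Pdk3). Pdk2 and Mpc1 went together (r = 0.900, and 0.740 without wild type replicate 2), as did Pdp1 and Pdp2 (0.886, and 0.772 without that array) and Pdp2 and Pdha1 (0.859, and 0.893). Pdk4 with Pdk2, in contrast, had r = 0.175, and -0.172 without miR-100 replicate 4. The rows most like Pdp1, the member with the lowest p, were Pdhx at 0.981, Sspn at 0.976, Tyro3 at 0.973, Dph2 at 0.972 and Abcd3 at 0.971. Pdhx encodes the protein that holds the E3 component in the pyruvate dehydrogenase complex, Sspn a dystrophin-associated membrane protein and Abcd3 a peroxisomal transporter. All 5 were highest on wild type replicate 2 within their group, and without it their r with Pdp1 lay between 0.886 and 0.967.

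The rest of the complex and its lipoylation enzymes were listed as partners, and of 7 measured 0 passed the adjusted threshold. Their median difference was 0.055. Lipt2, which encodes the octanoyltransferase that begins lipoate attachment, had 7.53, 7.19, 7.41 and 7.40 in miR-100 hearts, against 7.69, 7.62, 7.74 and 8.03 in wild type hearts. The difference was -0.39 (SE 0.15, limma adjusted p = 0.521). Its groups did not overlap, the only such case of the 7, against 4.54% of all rows. Lias, the lipoate synthase gene, differed by 0.25 and Pdhx by 0.11. The E2 gene Dlat averaged 16.49 ± 0.18 in miR-100 hearts and 16.43 ± 0.23 in wild type hearts (SD, n = 4 each).

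Thiamine, whose diphosphate is the cofactor of E1, enters cells through carriers encoded by Slc19a2 and Slc19a3. Both measured genes of the 4 on this list had groups that did not overlap, both higher in miR-100 hearts, against 2.21% of all rows. Neither passed over all rows. This list, like the others, was chosen with earlier results of these data known, so the share of all rows is not a fair yardstick for it. For Slc19a2 the groups were barely apart, at 8.39 against 8.37. Slc19a3 had 5.79, 6.11, 5.85 and 5.82 in miR-100 hearts, against 5.34, 5.53, 4.85 and 4.98 in wild type hearts, a difference of 0.72 (SE 0.17, limma adjusted p = 0.199). Slc19a2 had 8.57, 8.42, 8.39 and 8.51 in miR-100 hearts, against 7.76, 8.37, 7.95 and 8.08 in wild type hearts, a difference of 0.43 (SE 0.16, limma adjusted p = 0.470). Slc19a3 lay near the middle of the table, at percentile 48.1 of row means.

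Of 14 genes that make, use or move pyruvate and lactate outside the complex, 0 passed. Slc16a7, which encodes the monocarboxylate transporter MCT2 with a high affinity for pyruvate, had 8.05, 8.07, 8.39 and 8.13 in miR-100 hearts, against 7.48, 7.36, 7.19 and 7.77 in wild type hearts. The groups did not overlap, and the difference was 0.71 (SE 0.16, limma adjusted p = 0.175). Slc16a3, the gene of the lactate exporter MCT4, lay at percentile 32.6 of row means and differed by -0.445 (limma adjusted p = 0.506). Its groups were barely apart, with the highest miR-100 value at 4.42 and the lowest wild type value at 4.47. Of the 14 genes, 1 was higher and 1 lower without overlap, against 2.21% and 2.33% of all rows. Me1, the cytosolic malic enzyme gene, differed by -0.30 (limma adjusted p = 0.689). The heart lactate dehydrogenase gene Ldhb averaged 15.25 ± 0.10 in miR-100 hearts and 15.25 ± 0.19 in wild type hearts (SD, n = 4 each).

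**Figure D5:**
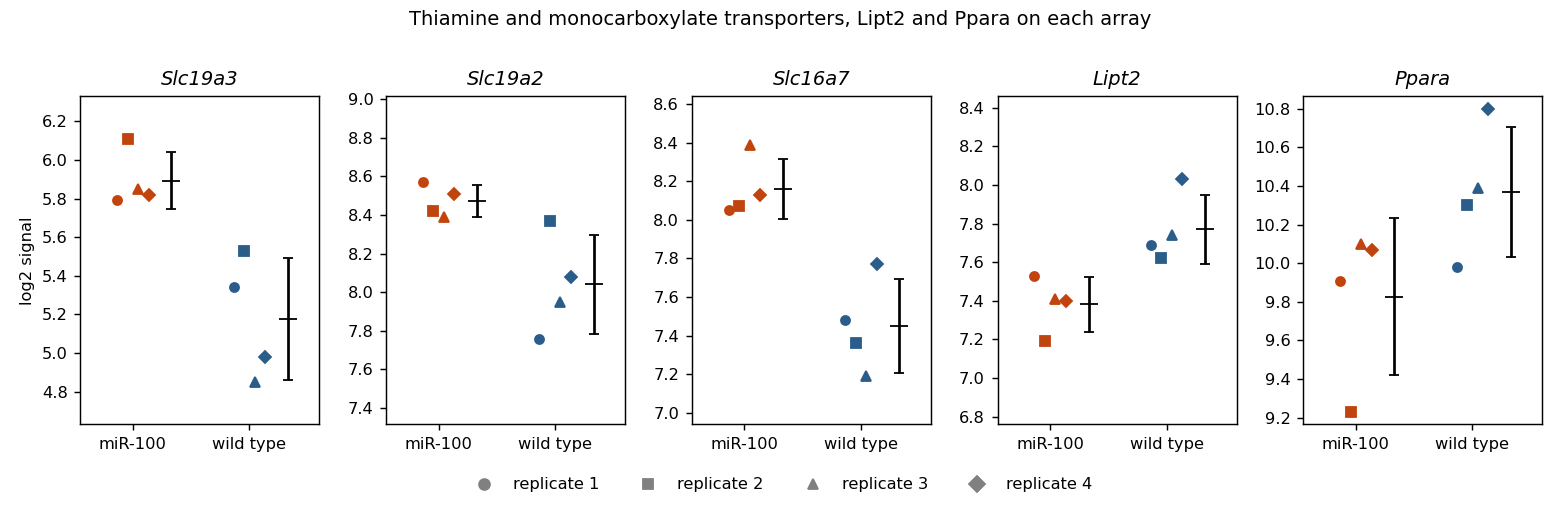
Log2 signal of Slc19a3, Slc19a2, Slc16a7, Lipt2 and Ppara on each array, with miR-100 left of wild type, a symbol for each replicate, and the mean with its SD as a black bar (n = 4 each). The groups do not overlap for the first 4 genes and overlap for Ppara, and none of the 5 passed the adjusted threshold.

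The sister complexes, which use the same kind of chemistry on 2-oxoglutarate and branched-chain ketoacids, had 0 of 7 genes past the threshold. The 3 genes with the lowest p all belonged to the branched-chain complex. Dbt, its E2 gene, differed by -0.33, Bckdha, the E1 alpha gene, by -0.27 and Bckdhb by -0.27, with limma adjusted p of 0.664, 0.694 and 0.792. The groups of Bckdha did not overlap but were barely apart, at 11.99 against 12.00. It was the only such case of the 7, against 4.54% of all rows. The kinase gene of that complex, Bckdk, a relative of the Pdk genes, averaged 11.38 ± 0.20 in miR-100 hearts and 11.44 ± 0.36 in wild type hearts (SD, n = 4 each).

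Transcription regulators known to act on Pdk genes gave 0 of 14 past the threshold, with a median difference of -0.01. Ppara, the fatty acid receptor gene, had 9.91, 9.23, 10.10 and 10.07 in miR-100 hearts, against 9.98, 10.30, 10.39 and 10.80 in wild type hearts. The groups overlapped by miR-100 replicates 3 and 4 with wild type replicate 1, and the difference was -0.54 (SE 0.22, limma adjusted p = 0.568). The coactivator gene Ppargc1b differed by -0.37 and Epas1, which encodes a hypoxia-inducible factor, by -0.21, with limma adjusted p of 0.729 and 0.806.

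Genes known to respond to the same signals as Pdk4 and Pdk1 also gave no call over all rows. Of 19 fatty acid responsive genes 14 were below 0 and 5 above, with a median of -0.09, and 0 passed. Angptl4 differed by 1.0 (SE 0.34, limma adjusted p = 0.427), with 8.93, 8.82, 7.91 and 7.30 in miR-100 hearts, against 7.47, 7.18, 7.77 and 6.54 in wild type hearts, with overlap. The thioesterase genes Acot1 and Acot2 differed by -1.02 and -0.585 (limma adjusted p = 0.203 and 0.272). The groups overlapped for Acot1 and did not for Acot2. Of the 19 genes, 2 had groups that did not overlap, both lower in miR-100 hearts, against 2.33% of all rows. Of 12 hypoxia targets 0 passed, and the lowest p belonged to the mTOR inhibitor gene Ddit4, the glucose transporter gene Slc2a1 and the prolyl hydroxylase gene Egln3, at -0.96, 0.41 and 0.39 (limma adjusted p = 0.467, 0.590 and 0.657).

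Of 12 glucocorticoid and FOXO targets 0 passed either. Txnip, which encodes an inhibitor of thioredoxin and glucose uptake, had 18.01, 18.18, 18.32 and 17.72 in miR-100 hearts, against 16.12, 17.35, 16.90 and 16.76 in wild type hearts. Its groups did not overlap, and the difference of 1.275 (SE 0.23) had a limma adjusted p of 0.0593, which passed under some settings. Of the 12 genes, 1 was higher and 1 lower without overlap, against 2.21% and 2.33% of all rows. Per1 and the kinase gene Sgk1 differed by -0.78 and -0.935 (limma adjusted p = 0.176 and 0.345). Clock genes gave 0 of 17 past the threshold, although 9 had groups that did not overlap (6 lower and 3 higher in miR-100 hearts), against 4.54% of all rows. This list, too, was chosen with earlier results of these data known. The lowest p belonged to Per3, Per2 and Ciart, at -0.81, -0.885 and -0.805 (limma adjusted p = 0.0548, 0.106 and 0.153). The 3 higher ones were Arntl, Nr1d1 and Clock, at 1.025, 0.8025 and 0.49 (limma adjusted p = 0.175, 0.181 and 0.306), named after their values were seen.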

How the data were processed

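Left ventricular RNA of 8 mice was measured on Affymetrix arrays, 1 per mouse. Each deposited value is a log2 signal of a transcript cluster. The submitters' processing notes name Transcriptome Analysis Console 4.0 as the authors' software, and how signals were summarised and normalised, and on which build, is not given in the sources used here. Column medians lay between 5.70 and 5.74, and arrays have signal and not read depth, so their number limits precision. Symbols came from the platform annotation, and all 19572 named rows had their Entrez number in a RefSeq table of GRCm38.p6.

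All 22206 rows entered a limma 3.58.1 fit (R 4.3.3) without transformation, filter or covariate, with Benjamini-Hochberg adjustment over all rows and a threshold of 0.05. Single genes and pairs were tested by two-sided exact permutation over arrays. The Mpc1 and Mpc2 pair was not run, since Mpc2 had no row. The code was tested on simulated data. Genes named were the members, in each list the 3 with the lowest unadjusted p, and the 5 rows most like Pdk4 and Pdp1. Others (such as Dlat, Ldhb, Bckdk, Ucp3, Cpt1a, Cpt1b and Acadm) were named after their values were seen. The members and lists were chosen with earlier results of these data known. Alternatives were named rows alone, a replicate block, quantile normalization, an intensity trend, rows brighter than the 25th or 50th percentile, median centring, robust moderation, array weights, and leaving out each array.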

Additional observations from a re-analysis of the deposited data

Results flagged for a closer look

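In groups of 4 arrays, a value was singled out where its gap to the nearest other value took up nearly the whole range of its group, by Dixon's test at 95%. Of 82 groups of values checked, 5 gave such a value, and chance gives about 1 in 20. Pdp1 read 11.75 on wild type replicate 2, above the other 3 wild type arrays. Pdk4 minus Pdk2 was -2.03 on miR-100 replicate 4, below the other 3 miR-100 arrays. Slc16a3 read 3.95 on miR-100 replicate 3, Me1 read 11.37 on wild type replicate 4 and Per3 read 10.99 on wild type replicate 3, each below the other 3 arrays of its group.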

How the results depend on the processing

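The count of members past the threshold was 0 under all 9 other settings and in all 8 fits without an array. The count over all rows, 31 here, was 65 with an intensity trend and ran from 11 to 27 without single arrays. The sign of Mpc1 changed with array weights (-0.0248) and quantile normalization (-0.0114). Without single arrays, differences ran from -0.105 to 0.000833 for Pdk1, -0.365 to -0.01 for Pdk2, -0.0417 to 0.16 for Pdk3, -0.63 to 0.37 for Pdk4, 0.14 to 0.33 for Pdp1, -0.24 to -0.035 for Pdp2, -0.15 to 0.18 for Mpc1, 0.05 to 0.24 for Pdha1 and -0.0658 to 0.11 for Pdhb. For pairs they ran from -0.55 to 0.44 for Pdk4 minus Pdk1, -0.61 to 0.47 for Pdk4 minus Pdk2, -0.78 to 0.42 for Pdk4 minus Pdk3 and -0.31 to 0.0642 for Pdk2 minus Pdk1. Over all rows, same-numbered arrays did not deviate together (correlations -0.06 to 0.07). This cannot decide whether the numbers pair the mice, since a shared factor may act on few genes. Pdk4, for example, was lowest in replicate 4 of each group. A fit with the replicate block called 21 rows and 0 members. Permutation within replicate numbers, a replicate block, gave Pdp1 minus Pdp2 a difference of 0.35 with an exact p of 0.125, the smallest it allows. Txnip passed with an intensity trend, array weights, rows above the 50th percentile, named rows alone, or without wild type replicate 2 (limma adjusted p = 0.00706 to 0.0476). Per3 passed with an intensity trend, a filter on dim rows or named rows alone (0.0147 to 0.0477), and Per2 without wild type replicate 1 (0.0387). Of the other genes named, leaving out single arrays moved Bckdhb to -0.117 (miR-100 replicate 1), Ppara to -0.341 (miR-100 replicate 2), Ppargc1b to -0.209 (wild type replicate 1), Lias to 0.133 (miR-100 replicate 2) or 0.142 (wild type replicate 3), and Pdhx between 0.0125 (miR-100 replicate 4) and 0.264 (wild type replicate 2). Causes of these changes were not tested. Among the genes refitted here, signal over background limits Pdk3, Slc16a3 and Slc19a3 most. Their row means lie below the 50th percentile, so the fit of rows above it leaves these 3 out. Slc19a3 was the brightest of them, at percentile 48.1.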

Other observations

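Because Angptl4, Ucp3 and Pdk4 went up and down together from mouse to mouse, their differences within an array are given here as values with no test, chosen after the data were seen. Angptl4 minus Pdk4 was -7.36, -7.58, -7.84 and -6.21 in miR-100 hearts, against -9.05, -8.35, -8.52 and -8.21 in wild type hearts (log2). The groups did not overlap on this measure, although they did for each gene alone. Ucp3 minus Pdk4 was -3.31, -3.12, -3.44 and -2.26 in miR-100 hearts, against -4.08, -3.39, -4.14 and -3.49 in wild type hearts, with slight overlap. Acot1 minus Pdk4, for another fatty acid responsive gene with r = 0.787, was -7.90, -7.40, -7.62 and -5.90 in miR-100 hearts, against -6.96, -6.61, -6.87 and -5.44 in wild type hearts, with overlap. Plin2 minus Pdk4 averaged -3.42 in miR-100 hearts and -3.74 in wild type hearts, with overlap. Cpt1a, Plin5 and Ehhadh minus Pdk4 overlapped as well. They averaged -5.08, -5.80 and -8.19 in miR-100 hearts and -5.28, -5.88 and -8.63 in wild type hearts. How often a difference from Pdk4 separates the groups over all rows was not counted.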
